A study of Bos indicus and Bos indicus x Bos taurus and Bos taurus with 6 samples.

Results

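Proliferation genes of DNA replication and mitosis were followed in the whole blood of 3 cattle breeds. The set held 46 genes, chosen by symbol from known roles in the cell cycle. All 46 were found among the 21698 genes of the count table, and all 46 were among the 13455 that passed the filter on low counts. Of them, 16 act in DNA replication and 30 in mitosis. Positions are given as in the deposited table.

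Blood was drawn from the jugular vein of clinically healthy, non-pregnant, non-lactating adult cows at a university farm in Malaysia, in what the labels call heat stress, at a Temperature-Humidity Index of 44.68. The formula of that index is not given in the sources used here, and the value lies outside the range commonly used for heat stress in cattle, so the degree of heat load cannot be read from it. Kedah-Kelantan, a tropical breed of Bos indicus, is labelled heat-tolerant, Brangus is a composite labelled intermediate, and Holstein Friesian is a Bos taurus breed labelled heat-vulnerable. Age was 4.5 ± 1.2 years and body weight 450 ± 15 kg in the labels of every group, and no group was sampled outside heat stress. Each breed had 2 libraries labelled as biological replicates, while the design text names 4 animals per breed, so how animals map to libraries is not given in the sources used here, and the p-values measure the spread between these libraries. The series as a whole asked about deiodinase genes, thyroid metabolism and heat resilience.

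A dividing cell copies its DNA once in S phase and parts the copies in mitosis. Origins are licensed by CDC6 and CDT1, which load the MCM2 to MCM7 helicase, and CDC45 and the GINS complex switch it on. PCNA clamps the polymerases to DNA, and RRM2, TYMS and TK1 supply nucleotides. Entry into mitosis is driven by cyclins A and B with CDK1, and by the PLK1 and Aurora kinases. The kinetochore ties chromosomes to the spindle, and motors and cross-linkers build the spindle and complete cytokinesis. Most circulating leukocytes do not divide. Activated lymphocytes and plasmablasts are known to be the main dividing cells of blood, and replication proteins also serve DNA repair outside S phase.

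Total counts ranged from 25275377 to 28668857 per library. Genes with any count numbered 15178 and 15029 in Kedah-Kelantan, 14199 and 14683 in Holstein Friesian, and 13713 and 13260 in Brangus. TMM factors were 1.11 and 1.09, 1.04 and 0.94, and 0.92 and 0.91 for the breeds in that order. Detection thus fell in the same order of breeds as the levels described below, and its part in them was not tested. Replicates of Holstein Friesian stood apart from each other: the median absolute log2 difference between its libraries was 0.61 over all tested genes, against 0.16 in Kedah-Kelantan and 0.25 in Brangus. Its summed B cell markers were 3186 CPM (reads of a gene over the library size after TMM scaling) in library 1 and 232 in library 2, and its summed monocyte markers 543 and 8128. For the 46 genes the same measure was 0.29 in Holstein Friesian, 0.26 in Brangus and 0.14 in Kedah-Kelantan. Leukocyte markers were present, though not every one. CATHL4 of the neutrophil markers had no count in any library, and HDC had none in 5 of the 6. Of 11 eosinophil, basophil and mast cell markers, 7 were in the count table. T cell markers summed to 2418 to 3021 CPM over the 6 libraries, with none of 12 at 0. Of the erythroid markers, HBA1 and CA1 had no count in any library.

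Measured per length, as FPKM averaged over the 6 libraries, the 46 genes ran from 0.48 for FOXM1 to 60.7 for PCNA, with a median of 3.48. Replication genes had the higher levels, with a median of 12.3 FPKM against 2.80 for mitosis genes. Of the 16 replication genes, 9 were above 10 FPKM (MCM3, MCM4, MCM5, MCM6, MCM7, PCNA, RRM2, TYMS and TK1). Of the 30 mitosis genes, 1 was above that level, NUSAP1, whose gene model shares 35860 bases with CHP1 on the same strand. How reads over both genes were assigned is not given, so the NUSAP1 level is uncertain. It made up 24.9% to 29.8% of the summed CPM of the 46 genes in each library.

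**Figure D1:**
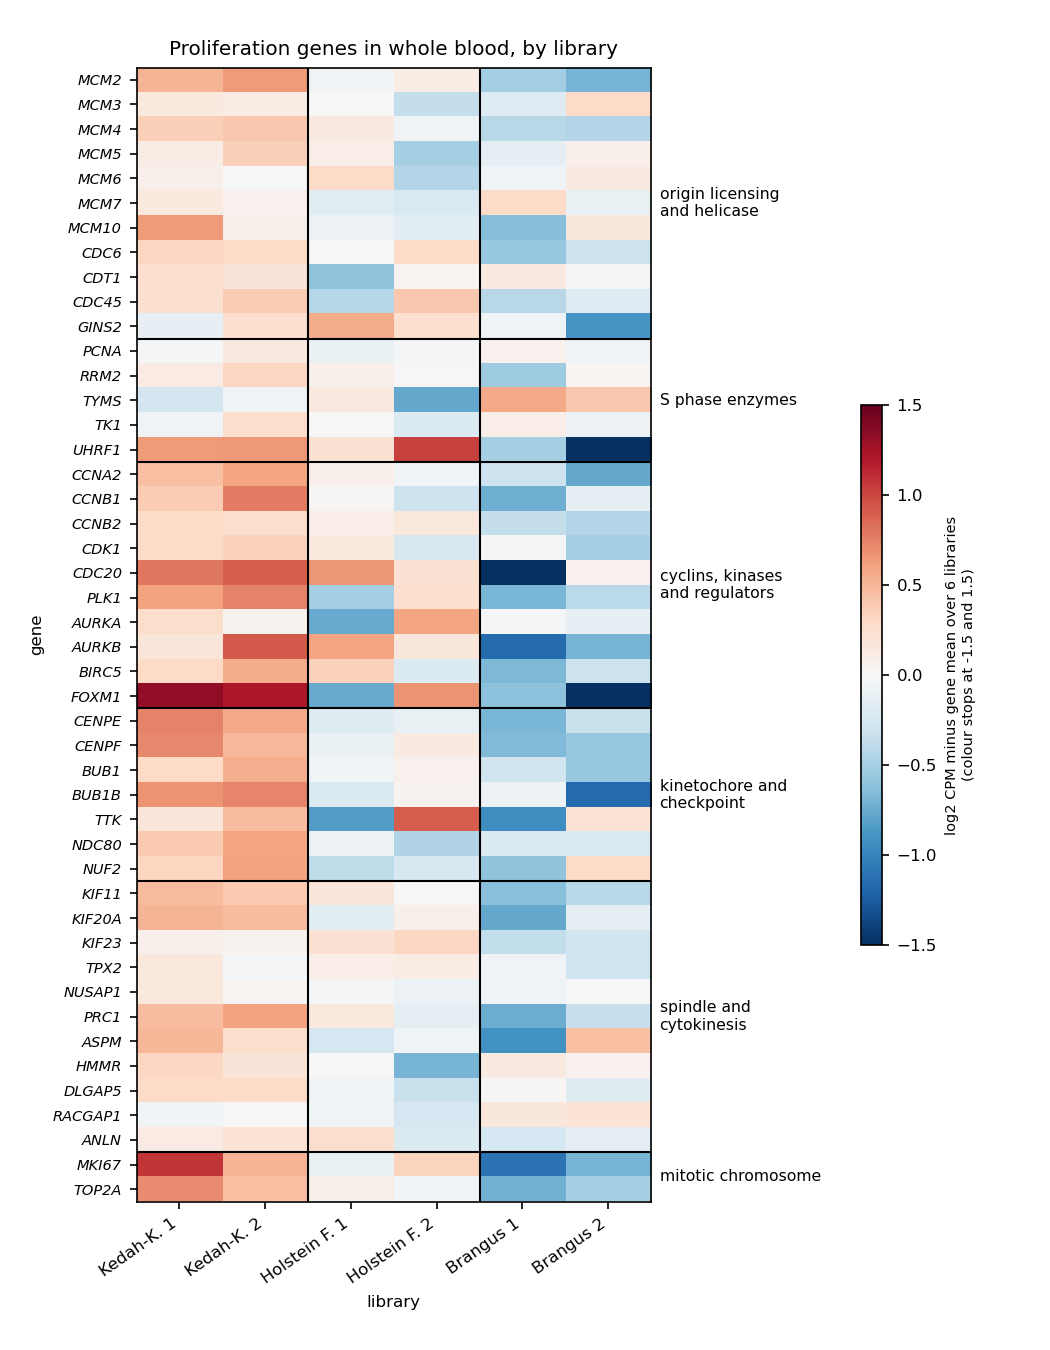
Heatmap of the 46 genes (rows, replication roles above and mitosis roles below, set off by lines) in the 6 libraries (columns), coloured by log2 CPM minus the mean of each gene over the libraries. Both Kedah-Kelantan columns lie mostly above 0 and both Brangus columns mostly below, more so for mitosis genes.

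Kedah-Kelantan held the highest levels of most of these genes and Brangus the lowest. Mean centred log2 CPM of the mitosis genes was 0.43 and 0.45 in the Kedah-Kelantan libraries, -0.05 and 0.02 in Holstein Friesian, and -0.53 and -0.32 in Brangus. For replication genes the values were 0.19 and 0.25, 0.00 and -0.04, and -0.18 and -0.23, with breeds listed likewise. The breeds did not overlap in either set of means. For replication genes that did not hold gene by gene between Brangus and Holstein Friesian. Of the 16, 8 had a higher and 8 a lower fitted mean in Brangus, where 47.3% and 52.7% of all tested genes did. Their median log2 fold change was 0.01. No single gene passed the test in edgeR's quasi-likelihood model at adjusted p under 0.05, so the values below describe these libraries. In bulk blood, fewer cells of a type and less RNA per cell cannot be told apart. The 3 comparisons share libraries with each other, so their values for a gene are not independent. A fit without a given library leaves its breed with a single library, so the spread comes from the other breeds only. Without a Holstein Friesian library, the breed whose replicates differed most drops out of that spread. More calls in those fits, among these genes and among all genes, are therefore not added support.

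Kedah-Kelantan against Brangus gave the largest separation. Of the 46 genes, 43 had a higher fitted mean in Kedah-Kelantan and 3 (TYMS, RACGAP1 and MCM6) a lower one, where 51.9% and 48.1% of all tested genes did, and the median log2 fold change was 0.60, against 0.02 over all tested genes. MCM6, at -0.01, turned to 0.25 with library totals or FPKM. Those scalings also moved the median of all tested genes, to 0.29 with totals and 0.28 with FPKM. With edgeR and Benjamini-Hochberg adjustment, 0 of 46 were called, where 0% of all genes were, and the smallest adjusted p was 0.351. At unadjusted p under 0.05 there were 17 genes higher and 0 lower, where 5.54% of all tested genes were higher at that level and 6.09% lower. Both Kedah-Kelantan libraries lay above both Brangus libraries for 35 genes, and below them for TYMS and RACGAP1. Over all tested genes those shares were 33.5% and 30.7%. With DESeq2, 11 genes passed adjusted p under 0.05 (AURKB, BUB1, CCNA2, CENPE, CENPF, KIF11, MCM2, MCM4, MKI67, PRC1 and TOP2A), all higher in Kedah-Kelantan, where 2.19% of all genes were called higher and 2.74% lower. Without Holstein Friesian library 1 edgeR called 16, of which 15 were higher and TYMS lower in Kedah-Kelantan (17.4% of all genes were called), and without library 2 it called 15, of which 14 were higher (17.5%).

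Kedah-Kelantan against Holstein Friesian gave a smaller difference of the same direction. The fitted mean was higher in Kedah-Kelantan for 42 genes and lower for 4 (KIF23, TPX2, UHRF1 and GINS2), where 46.5% and 53.5% of all genes were, with a median log2 fold change of 0.34 against -0.03 over all genes. With edgeR 0 of 46 were called at adjusted p under 0.05, where 0.00743% of all genes were, and the smallest adjusted p was 0.995. At unadjusted p under 0.05 there were 3 higher and 0 lower, where 2.2% and 1.84% of all genes were, and DESeq2 called 0 of 46, where it called 0.503% of all genes higher and 0.51% lower. Both Kedah-Kelantan libraries lay above both Holstein Friesian libraries for 31 genes and below for KIF23, against 18.1% and 12.6% of all genes. Without Holstein Friesian library 1 edgeR called 2 (HMMR and MCM5, where 17.5% of all genes were called), and without library 2 it called PLK1 (11.9%).

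Brangus against Holstein Friesian went the other way. The fitted mean was lower in Brangus for 31 genes and higher for 15, where 52.7% and 47.3% of all genes were, with a median log2 fold change of -0.35, against -0.03 over all genes. With edgeR 0 of 46 were called at adjusted p under 0.05, where 0.00743% of all genes were, and the smallest adjusted p was 0.645. At unadjusted p under 0.05 there were 8 lower and 0 higher, where 3.64% and 3.98% of all genes were, and DESeq2 called 0 of 46, where it called 1.09% of all genes higher and 1.2% lower. Both Brangus libraries lay below both Holstein Friesian libraries for 19 genes and above for 4 (MCM7, TYMS, HMMR and RACGAP1), against 15.9% and 18.4% of all genes. Without Holstein Friesian library 1, edgeR called 8, of which 3 were higher and 5 lower in Brangus, where 31.3% of all genes were called, and without library 2 it called 0, where 6.06% were.

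In the test of any difference among the 3 breeds, edgeR called 0 of 46, where 0% of all genes were called, with a smallest adjusted p of 0.536 for TOP2A. DESeq2 called 7, where it called 4.65% of all genes, and 10 had an unadjusted edgeR p under 0.05, where 8.23% did. Without Holstein Friesian library 1 edgeR called 14, where 34.1% of all genes were called, and without library 2 it called 8, where 19.9% were. For 12 of the 46 genes both Kedah-Kelantan libraries lay above both Holstein Friesian libraries, and these above both Brangus libraries, where 2.75% of all tested genes had that order. They were MCM2 and MCM4 of the 16 replication genes, and CCNA2, CCNB2, CDC20, CENPE, CENPF, BUB1, KIF11, PRC1, MKI67 and TOP2A of the 30 mitosis genes. With library totals in place of TMM factors the count was 19, where 7.89% of all genes had the order.

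**Figure D2:**
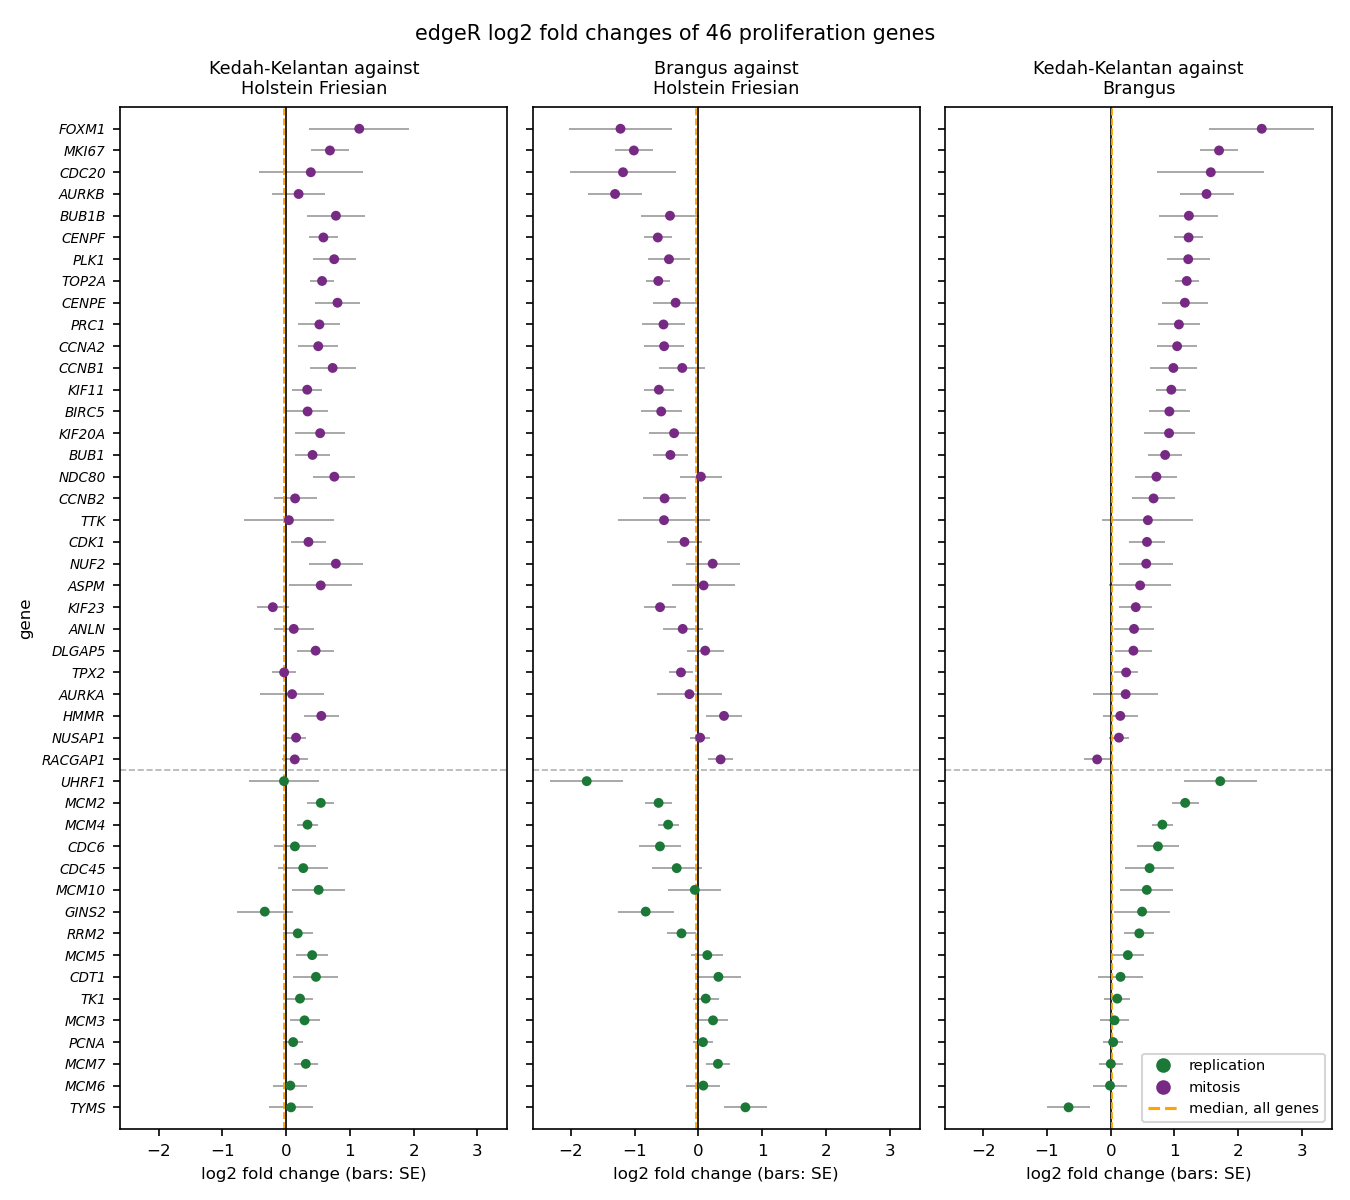
Log2 fold changes from edgeR (points) with their standard errors (bars) for the 46 genes in the 3 comparisons, mitosis genes above and replication genes below the dashed line. In Kedah-Kelantan against Brangus 43 points lie above 0, with FOXM1 at 2.37 and TYMS at -0.66 at the ends.

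Among the licensing and helicase genes, MCM2 and MCM4 were those whose libraries fell into 3 separate breeds in the order Kedah-Kelantan, Holstein Friesian, Brangus. MCM2 (chromosome 22, 59896016 to 59912700, minus strand) was at 24.8 and 27.2 CPM in the Kedah-Kelantan libraries, 16.8 and 18.9 in those of Holstein Friesian, and 12.3 and 10.8 in those of Brangus. The breeds did not overlap, and the log2 fold change of Kedah-Kelantan against Brangus was 1.17 (edgeR, SE 0.21, adjusted p 0.353). MCM4 was at 48.0 and 49.8, 41.2 and 36.3, and 28.2 and 27.6 CPM for the breeds in that order, again without overlap, with a log2 fold change of 0.81 (edgeR, SE 0.17, adjusted p 0.353). DESeq2 called both, with adjusted p of 6.9e-05 for MCM2 and 7.0e-04 for MCM4.

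MCM7 and MCM6 had the highest FPKM of this role. MCM7 was at 131 and 124 CPM in the Kedah-Kelantan libraries, 104 and 101 in those of Holstein Friesian, and 144 and 110 in those of Brangus. MCM6 was at 96.0 and 90.7, 111 and 67.2, and 88.2 and 99.8 CPM. Brangus spanned the Kedah-Kelantan values in both genes, and the log2 fold changes of Kedah-Kelantan against Brangus were 0.00 (SE 0.19) for MCM7 and -0.01 (SE 0.27) for MCM6. Both Holstein Friesian libraries lay below all others for MCM7, and both Kedah-Kelantan libraries above all others for MCM5. The contrast of Kedah-Kelantan with Brangus gave 0.06 (SE 0.23) for MCM3 and 0.27 (SE 0.25) for MCM5. The RNA of the 6 subunits, which assemble into 1 ring, thus had log2 fold changes from -0.01 to 1.17 between these breeds. The loaders CDC6 and CDT1 had log2 fold changes of 0.74 (SE 0.33) and 0.15 (SE 0.35), and CDC45, MCM10 and GINS2 had 0.61, 0.57 and 0.49, with SEs of 0.39 to 0.44. Over the 11 genes of the role the median was 0.49.

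The S phase clamp, nucleotide enzymes and the methylation factor UHRF1 gave a median of 0.10 for Kedah-Kelantan against Brangus, over 5 genes. PCNA (chromosome 13, 47430404 to 47436478, minus strand) was nearly level, at 118 and 131 CPM in the Kedah-Kelantan libraries, 112 and 119 in those of Holstein Friesian, and 126 and 116 in those of Brangus. TK1, the thymidine salvage kinase, was at 33.0 and 41.1, 34.4 and 29.4, and 36.7 and 32.4 CPM. Kedah-Kelantan and Brangus overlapped in both, with log2 fold changes of 0.04 (SE 0.16) and 0.10 (SE 0.20).

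TYMS and UHRF1 went in opposite directions. TYMS, which makes thymidylate, was at 15.3 and 17.7 CPM in the Kedah-Kelantan libraries, 20.4 and 10.9 in those of Holstein Friesian, and 27.6 and 24.6 in those of Brangus, and both Brangus libraries lay above all others. UHRF1, which recruits the maintenance DNA methyltransferase, was at 19.6 and 19.9, 14.8 and 25.7, and 8.95 and 3.05 CPM, and both Brangus libraries lay below all others, though they differed from each other by more than 2-fold. The log2 fold changes of Kedah-Kelantan against Brangus were -0.66 (edgeR, SE 0.34, adjusted p 0.505) for TYMS and 1.72 (edgeR, SE 0.57, adjusted p 0.388) for UHRF1. UHRF1 shares 1487 bases with ARRDC5 on the other strand, and TYMS 196 bases with ENOSF1. Strand use in counting is not given, so reads there cannot be told apart.

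**Figure D3:**
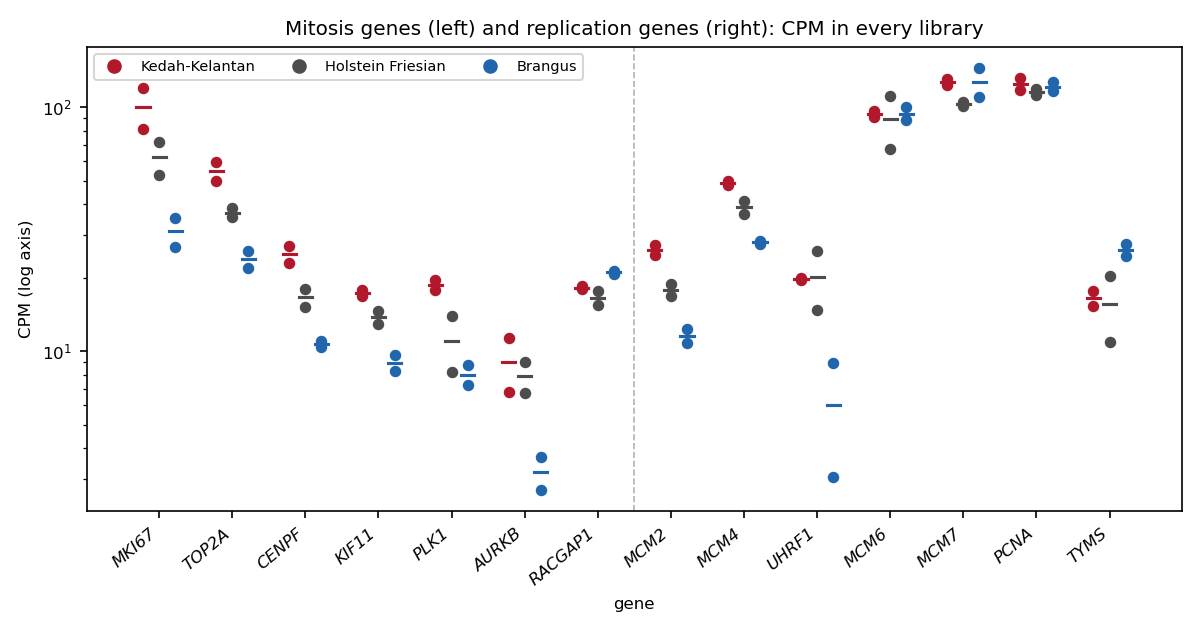
CPM on a log axis for 7 mitosis genes (left) and 7 replication genes (right), with 1 point per library and a bar at each breed mean. MKI67, TOP2A, CENPF, KIF11, MCM2 and MCM4 step down from Kedah-Kelantan to Holstein Friesian to Brangus, while MCM6, MCM7 and PCNA overlap between Kedah-Kelantan and Brangus.

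All 10 cyclins, kinases and their regulators had higher values in both Kedah-Kelantan libraries than in both Brangus libraries, where 33.5% of all tested genes did. Their median log2 fold change was 1.01. All 10 had a lower fitted mean in Brangus than in Holstein Friesian (median -0.53), where 52.7% of all tested genes did. PLK1, the Polo kinase of mitotic entry, was at 17.8 and 19.5 CPM in the Kedah-Kelantan libraries, 8.19 and 13.9 in those of Holstein Friesian, and 7.24 and 8.81 in those of Brangus. Kedah-Kelantan stood above the other breeds, which overlapped each other, and its log2 fold change against Brangus was 1.22 (edgeR, SE 0.34, adjusted p 0.359).

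AURKB and BIRC5 encode subunits of the chromosomal passenger complex, which corrects faulty kinetochore attachments. AURKB was at 6.79 and 11.3 CPM in the Kedah-Kelantan libraries, 9.06 and 6.77 in those of Holstein Friesian, and 2.70 and 3.69 in those of Brangus. BIRC5 was at 12 and 14.3, 12.4 and 8.44, and 6.08 and 7.82 CPM. In both genes Brangus lay below every other library, and Kedah-Kelantan overlapped Holstein Friesian. The log2 fold changes of Kedah-Kelantan against Brangus were 1.5 (edgeR, SE 0.42, adjusted p 0.359) and 0.92 (edgeR, SE 0.33, adjusted p 0.398). FOXM1, the transcription factor of G2 and M phase genes, had the widest difference of the 46 and the lowest level. Its counts were 97 and 89 in Kedah-Kelantan, 22 and 52 in Holstein Friesian, and 19 and 8 in Brangus, which made its log2 fold change of Kedah-Kelantan against Brangus 2.37 (edgeR, SE 0.83, adjusted p 0.392).

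All 7 kinetochore and checkpoint genes had a higher fitted mean in Kedah-Kelantan than in either other breed, with medians of 0.76 against Holstein Friesian and 0.85 against Brangus. Of all tested genes, 46.5% were higher in the former comparison and 51.9% in the latter. CENPF, a large kinetochore protein of G2 and mitosis, was at 26.9 and 22.9 CPM in the Kedah-Kelantan libraries, 15.2 and 18.0 in those of Holstein Friesian, and 10.4 and 11 in those of Brangus. CENPE, the kinetochore motor, was at 7.66 and 6.76, 4.03 and 4.22, and 2.83 and 3.61 CPM. BUB1, a checkpoint kinase, was at 11.9 and 14.1, 9.43 and 10.1, and 7.88 and 6.53 CPM. None of these 3 genes had overlapping breeds, and their log2 fold changes of Kedah-Kelantan against Brangus were 1.22 (SE 0.23), 1.16 (SE 0.36) and 0.85 (SE 0.27). NUF2, a subunit of the microtubule-binding NDC80 complex, was at 7.11 and 8.61, 4.36 and 4.79, and 3.73 and 6.96 CPM, so the Brangus libraries spanned those of Holstein Friesian.

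The 11 genes of spindle motors, microtubule proteins and cytokinesis were mixed, with a median of 0.37 for Kedah-Kelantan against Brangus. KIF11, the motor that pushes spindle poles apart, was at 17.8 and 16.8 CPM in the Kedah-Kelantan libraries, 14.6 and 12.9 in those of Holstein Friesian, and 8.31 and 9.62 in those of Brangus. PRC1, which bundles midzone microtubules, was at 8.95 and 9.88, 7.21 and 5.89, and 3.85 and 5.11 CPM. Neither had overlapping breeds, and the log2 fold changes were 0.95 (SE 0.23) and 1.07 (SE 0.33).

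HMMR, NUSAP1 and RACGAP1 differed less between Kedah-Kelantan and Brangus. HMMR, a spindle-binding protein that is also the hyaluronan receptor RHAMM, was at 28.1 and 25.9 CPM in the Kedah-Kelantan libraries, 22.8 and 14 in those of Holstein Friesian, and 24.8 and 23.8 in those of Brangus. NUSAP1, a microtubule bundler, was at 428 and 392, 375 and 361, and 368 and 382 CPM. Their log2 fold changes of Kedah-Kelantan against Brangus were 0.15 (SE 0.28) and 0.13 (SE 0.16). Both Holstein Friesian libraries lay below all others for HMMR, with 0.55 (SE 0.28) for Kedah-Kelantan and 0.40 (SE 0.28) for Brangus against them. RACGAP1, a centralspindlin subunit of cytokinesis, was the mitosis gene with a lower value in Kedah-Kelantan than in Brangus, at 17.9 and 18.4 against 20.7 and 21.4 CPM, with a log2 fold change of -0.21 (SE 0.20). KIF23, its partner in centralspindlin, had 0.39 (SE 0.26) in that comparison and -0.21 (SE 0.25) against Holstein Friesian. KIF23 shares 2187 bases with PAQR5 on the same strand, so its level is uncertain too. In all, 8 of the 46 genes overlap another gene. Among them is KIF20A, which shares 8399 bases with CDC23 on the other strand.

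The mitotic chromosome genes MKI67 and TOP2A had the smallest p of the 46 in the comparison of Kedah-Kelantan with Brangus. MKI67, which encodes the Ki-67 proliferation antigen (chromosome 26, 47507658 to 47537785, minus strand), was at 120 and 81.1 CPM in the Kedah-Kelantan libraries, 52.6 and 72.1 in those of Holstein Friesian, and 26.6 and 35.3 in those of Brangus. TOP2A, the topoisomerase that untangles sister DNA (chromosome 19, 40627035 to 40653291, minus strand), was at 59.3 and 49.8, 38.5 and 35.4, and 22 and 25.7 CPM. The breeds overlapped in neither gene. Kedah-Kelantan stood 3.25-fold above Brangus for MKI67 (log2 fold change 1.70, SE 0.30) and 2.29-fold for TOP2A (1.19, SE 0.19), each with an edgeR adjusted p of 0.351. Against Holstein Friesian the log2 fold changes of Kedah-Kelantan were 0.69 (SE 0.29) and 0.56 (SE 0.19), and those of Brangus -1.01 (SE 0.29) and -0.63 (SE 0.19).

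Mitosis genes separated the breeds more widely than replication genes in the values. For Kedah-Kelantan against Brangus the median log2 fold change was 0.88 over 30 mitosis genes and 0.36 over 16 replication genes. Both Kedah-Kelantan libraries lay above both Brangus libraries for 27 of 30 and 8 of 16, and below them for 1 gene in each set. Of all tested genes, 33.5% lay above and 30.7% below. For Kedah-Kelantan against Holstein Friesian the medians were 0.48 and 0.24, and for Brangus against Holstein Friesian -0.44 and 0.01. The medians of both sets moved with single libraries. For replication genes, that of Brangus against Holstein Friesian was -0.29 without Brangus library 2 and -0.15 without Holstein Friesian library 2. That of Kedah-Kelantan was 0.21 against Brangus without Brangus library 1, and 0.16 against Holstein Friesian without Holstein Friesian library 2. For mitosis genes, Kedah-Kelantan against Brangus gave 0.73 without Brangus library 1 and 1.07 without Brangus library 2. Brangus against Holstein Friesian gave -0.41 and -0.61 in those fits. With library totals the medians of Kedah-Kelantan against Brangus were 1.15 for mitosis and 0.62 for replication. Per library, the replication level minus the mitosis level was -0.24 and -0.20 in Kedah-Kelantan, 0.06 and -0.06 in Holstein Friesian, and 0.35 and 0.09 in Brangus. The breeds kept apart in this difference, and Brangus had the widest gap between its libraries. The difference of Kedah-Kelantan from Brangus was -0.44 and ranged from -0.57 to -0.31 when each library was left out in turn. A score over chosen genes was given no test.

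**Figure D4:**
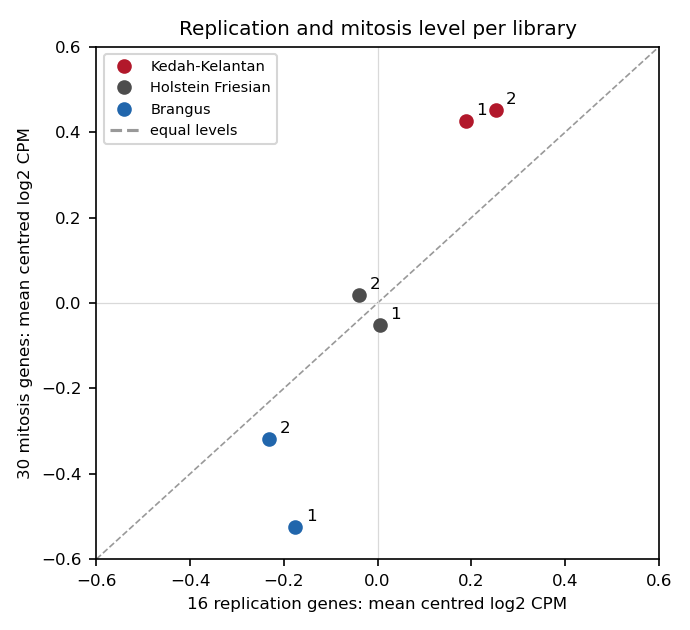
Mean centred log2 CPM of the 16 replication genes (horizontal) and the 30 mitosis genes (vertical) in each library, with a dashed line of equal levels. Kedah-Kelantan libraries lie at the upper right above the line, Brangus libraries at the lower left below it, and Holstein Friesian libraries near the origin.

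The replication genes with small differences were mainly the abundant ones. For Kedah-Kelantan against Brangus the median log2 fold change was 0.06 over the 9 replication genes above 10 FPKM, and 0.61 over the other 7 (MCM2, MCM10, CDC6, CDT1, CDC45, GINS2 and UHRF1). The split was not clean. Above 10 FPKM the values ran from -0.66 for TYMS to 0.81 for MCM4, with RRM2 at 0.45, and CDT1 among the other 7 was at 0.15. Among the 29 mitosis genes at or below 10 FPKM the median was 0.91. Across genes, Spearman's rho between mean FPKM and this fold change was -0.64 over 16 replication genes and -0.09 over 30 mitosis genes. These are descriptions, since the genes share the 6 libraries and their depth, and genes are not independent replicates.

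**Figure D5:**
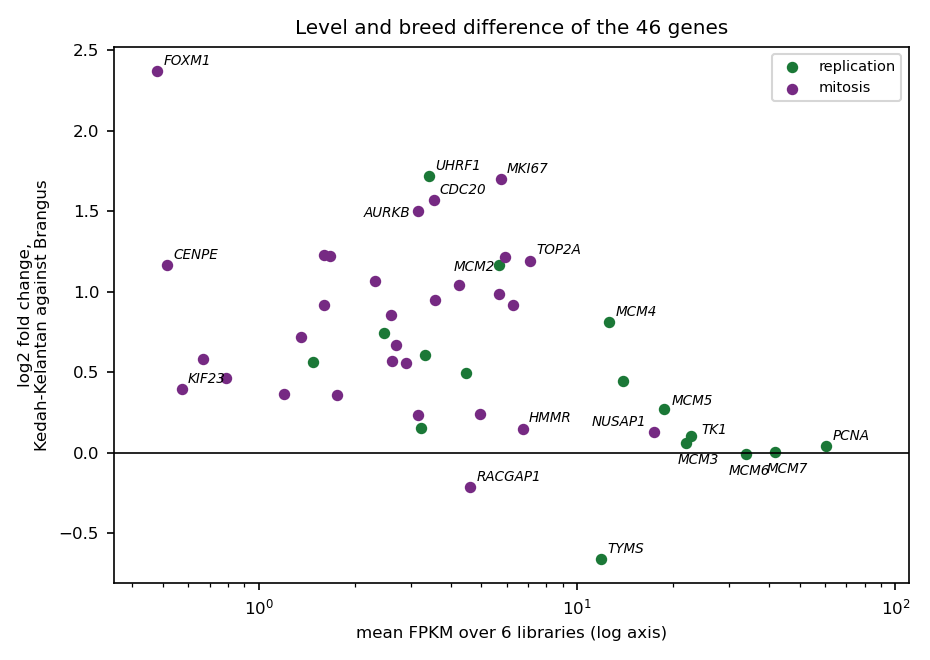
Mean FPKM over the 6 libraries (log axis) against the log2 fold change of Kedah-Kelantan against Brangus, with 1 point per gene, green for replication and purple for mitosis. PCNA, MCM7, MCM6, MCM3 and TK1 lie at the right close to 0, while FOXM1 lies at the upper left.

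Some genes differed widely between the replicates of a breed. In Brangus 6 of the 46 differed by over 2-fold between libraries 1 and 2, with counts of 209 and 71 for UHRF1, 19 and 123 for CDC20, 19 and 8 for FOXM1, 119 and 56 for BUB1B, 52 and 114 for TTK, and 97 and 247 for ASPM. In Holstein Friesian there were 3, namely AURKA with 108 and 242, FOXM1 with 22 and 52, and TTK with 71 and 210. Kedah-Kelantan had none. CDC20, which activates the anaphase-promoting complex, thus had a log2 fold change of 1.57 with an SE of 0.84 for Kedah-Kelantan against Brangus. Of all 13455 tested genes, 1873 differed by over 2-fold between the Brangus libraries. In Holstein Friesian 4392 did, and in Kedah-Kelantan 469. Such gaps were therefore not particular to the 46 genes.

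Other genes of the same processes were read from lists drawn from textbook roles. Of 44 other mitosis genes, 38 had a higher and 6 a lower fitted mean in Kedah-Kelantan than in Brangus, against 51.9% and 48.1% of all tested genes. Their median log2 fold change was 0.52, and edgeR called 0, where 0% of all genes were called. ESPL1, the separase that cleaves cohesin, was at 6.98 and 6.27 CPM in the Kedah-Kelantan libraries, 4.83 and 5.93 in those of Holstein Friesian, and 1.41 and 1.16 in those of Brangus. SGO2, which protects centromeric cohesin, was at 40.4 and 36.4, 23.4 and 21.7, and 17.6 and 20.7 CPM. Neither had overlapping breeds, with log2 fold changes of 2.36 (SE 0.40) and 1.00 (SE 0.19).

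Of 36 other replication factors, 12 had a higher and 24 a lower fitted mean in Kedah-Kelantan than in Brangus, against 51.9% and 48.1% of all tested genes. Their median was -0.11, and edgeR called 0, where 0% of all genes were called. Both Kedah-Kelantan libraries lay above both Brangus libraries for 8 of them and below for 16, against 33.5% and 30.7% of all genes. The named ones lay higher: GINS1, a subunit of the helicase activator, was at 15.7 and 14.9 CPM in the Kedah-Kelantan libraries, 9.06 and 6.54 in those of Holstein Friesian, and 6.98 and 8.46 in those of Brangus. POLE, the catalytic subunit of the leading-strand polymerase, was at 12.4 and 11.6, 6.01 and 7.76, and 5.99 and 7.00 CPM. In both genes Kedah-Kelantan lay above the other breeds, which overlapped. Of 34 genes of G1 control, 26 were higher and 8 lower, with a median of 0.21 and 0 called by edgeR. MYBL2, a factor of the complex that switches on mitotic genes, was at 11.6 and 12.1, 12.2 and 7.68, and 4.24 and 4.08 CPM. CDKN1C, the cell cycle inhibitor p57, had counts of 64 and 75 in Kedah-Kelantan, 13 and 55 in Holstein Friesian, and 0 and 0 in Brangus, at least 17.4-fold higher in Kedah-Kelantan when 0 is read as up to 3 counts per library.

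Markers of some blood cell types also differed between Kedah-Kelantan and Brangus, in both directions. Of all tested genes, 51.9% had a higher and 48.1% a lower fitted mean in Kedah-Kelantan. All 10 NK and cytotoxic lymphocyte markers had a higher fitted mean in Kedah-Kelantan than in Brangus (median log2 fold change 1.22), and their summed CPM was 672 and 763 in Kedah-Kelantan, 605 and 342 in Holstein Friesian, and 286 and 352 in Brangus, with no marker at 0. Platelet markers went the other way, with sums of 298 and 345, 417 and 547, and 1280 and 1407 CPM and 6 of 7 tested lower in Kedah-Kelantan than in Brangus. Erythroid markers summed to 213 and 247, 143 and 322, and 505 and 714 CPM, with 11 of 12 tested lower. Eosinophil, basophil and mast cell markers summed to 440 and 456 CPM in the Kedah-Kelantan libraries, 41.7 and 1311 in those of Holstein Friesian, and 46.9 and 42.4 in those of Brangus, and 4 of 6 tested were higher in Kedah-Kelantan than in Brangus. Of these, ALOX15 and MS4A2 had no count in Brangus library 2. Monocyte markers summed to 1538 and 1782 CPM in Kedah-Kelantan and 1267 and 1342 in Brangus, and neutrophil markers to 2508 and 2705 against 2871 and 4462, while the Holstein Friesian libraries lay at 978 and 7877 for the latter. T cell markers summed to 2428 and 2661 in Kedah-Kelantan and 2418 and 2499 in Brangus. B cell markers summed to 1959 and 2087 in Kedah-Kelantan and 3302 and 2770 in Brangus, and plasma cell markers to 609 and 642 against 822 and 824. The summed CPM of the 46 genes was 1619 and 1571 in Kedah-Kelantan, 1362 and 1283 in Holstein Friesian, and 1244 and 1279 in Brangus. The part of these cell types in the differences above was not tested.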

How the data were processed

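Whole-blood RNA of 6 libraries, 2 per breed, was analysed, grouped by the breed in the labels. The deposited counts are whole-number reads per gene, not normalised. The deposited FPKM values are the authors' values normalised to gene length and library total, and were used here for levels between genes and 1 alternative. Named in the submitters' processing notes are the build ARS-UCD1.2, HISAT2 2.2.1, featureCounts 2.0.1, Trimmomatic 0.39, FastQC 0.11.9 and DESeq2 1.38.0, with no roles, settings or strandedness in the sources used here. The labels' protocols required an RNA integrity number above 7.

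In R 4.3.3, edgeR 4.0.16 scaled libraries by TMM, removed low counts with filterByExpr (minimum count 10) and fitted a robust quasi-likelihood model of breed to all 6 libraries, with 3 residual degrees of freedom and a common biological coefficient of variation of 0.431. Benjamini-Hochberg adjustment covered all 13455 genes, and adjusted p under 0.05 was called. Positive log2 fold changes mean higher in the breed named first, and the SE is the fold change over the square root of F. Centred levels are log2 CPM (prior count 2) minus the mean of each gene over the libraries. The code was tested on simulated data. Counted reads are not known to be separate molecules, so counting floors cover counting error only.

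The 46 genes, their 6 role lists, 3 pathway lists and 10 marker lists were chosen with earlier results of these data known, so no list was tested. Genes given with all values are, per role, the 2 with the highest mean FPKM and the 2 with the smallest p of any breed difference, plus MKI67, TOP2A, PCNA and MCM2, and the 2 per pathway list with the smallest p. FOXM1, RACGAP1, KIF23 and the genes that differed over 2-fold between replicates were given after their values were seen. DESeq2 1.42.0, DESeq2 size factors, no filter, a mean count of at least 50, only the breeds compared, limma 3.58.1 on log2(FPKM + 0.1), a replicate block and leaving out each library were alternatives. Library totals without TMM factors were added after seeing the data. Figures used matplotlib 3.10.9.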

Additional observations from a re-analysis of the deposited data

How the results depend on the processing

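Leaving out each library in turn gave these ranges over the 46 genes: 0 to 2 called and a median log2 fold change of 0.27 to 0.44 for Kedah-Kelantan against Holstein Friesian, 0 to 8 and -0.51 to -0.25 for Brangus against Holstein Friesian, 0 to 16 and 0.59 to 0.77 for Kedah-Kelantan against Brangus, and 0 to 14 called for any breed difference. The 14 came without Holstein Friesian library 1, where 34.1% of all genes were called. The replication level minus the mitosis level ranged from 0.089 to 0.35 for Brangus against Holstein Friesian and from -0.57 to -0.31 for Kedah-Kelantan against Brangus. For Kedah-Kelantan against Brangus, DESeq2 called 11, and 16 were called with only those breeds in the fit (15 higher and 1 lower, where 9.09% and 10.2% of all genes were), against 0 in the fit to all libraries. For any breed difference DESeq2 called 7.

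FPKM gave medians of 0.51 for Kedah-Kelantan against Holstein Friesian and 0.85 against Brangus, and library totals gave 0.49 and 0.86, with -0.44 for Brangus against Holstein Friesian and 19 genes in the order of breeds, where 7.89% of all genes were. Both scalings also moved the median of all genes, to 0.18 and 0.28 with FPKM, and to 0.12 and 0.29 with totals (-0.14 for Brangus against Holstein Friesian). Relative to it, Kedah-Kelantan against Brangus stayed at 0.57 in both. Over the fits without 1 library, the median relative to all genes ran from 0.25 to 0.42 for Kedah-Kelantan against Holstein Friesian. It ran from -0.43 to -0.15 for Brangus against Holstein Friesian, and from 0.57 to 0.74 for Kedah-Kelantan against Brangus.

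Whether libraries of the same replicate number were handled together is not given in the sources used here. Their deviations correlated at -0.0017, 0.014 and 0.054 over 13455 genes. These values show no strong shared effect of the number, but cannot show that the libraries were unpaired. With a replicate block 0 of the 46 were called in each comparison, with medians of 0.34, -0.33 and 0.64.

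Of 1212 values of named genes under alternatives, 39 reversed in sign, and the cause was not tested. For Kedah-Kelantan against Holstein Friesian, UHRF1 gave 0.18 with FPKM and 0.145 with totals. Over the fits without 1 library UHRF1 ran from -0.38 to 0.38, AURKB from -0.22 to 0.52, TYMS from -0.345 to 0.60, MCM6 from -0.29 to 0.47 and MYBL2 from -0.0867 to 0.63. For Brangus against Holstein Friesian, NUSAP1 gave -0.0014 with DESeq2 size factors, -0.0131 with no filter, -0.00772 with a mean count of at least 50, -0.0014 with DESeq2, -0.075 with FPKM and -0.0788 with totals, PCNA -0.0309 with FPKM and -0.0298 with totals, and MCM6 -0.0467 with totals. Over the fits without 1 library GINS1 ran from -0.27 to 0.23, MCM6 from -0.28 to 0.48, NUF2 from -0.34 to 0.57, NUSAP1 from -0.0434 to 0.0474, PCNA from -0.0210 to 0.0861, POLE from -0.26 to 0.0747 and TK1 from -0.0319 to 0.225. For Kedah-Kelantan against Brangus, MCM7 gave -0.0011 with a mean count of at least 50, and MCM6 0.25 with FPKM and 0.25 with totals. Without 1 library MCM6 ran from -0.11 to 0.0848, MCM7 from -0.18 to 0.21, PCNA from -0.0347 to 0.13 and TK1 from -0.0564 to 0.26. Of the 46 genes, CDC20 and FOXM1, whose Brangus libraries differed by over 2-fold, had the widest SEs.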

Other observations

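GINS is a ring-like complex of 4 subunits that activates the MCM helicase, and its subunits did not share a direction between Kedah-Kelantan and Brangus. They were chosen for this view after their values were seen. GINS1 and GINS2 had log2 fold changes of 0.99 (SE 0.30) and 0.49 (SE 0.44), while GINS3 and GINS4 had -0.37 (SE 0.44) and -0.64 (SE 0.52). GINS3 was at 11.3 and 15.7 CPM in the Kedah-Kelantan libraries, 12.5 and 5.63 in those of Holstein Friesian, and 19.0 and 15.8 in those of Brangus. GINS4 was at 3.73 and 4.71, 3.96 and 2.01, and 8.26 and 4.90 CPM. With edgeR none of the 4 passed, with adjusted p from 0.367 to 0.775. CENPM, a kinetochore protein, was among the other mitosis genes with higher values in Brangus, at 7.92 and 10.5 CPM in the Kedah-Kelantan libraries, 10.2 and 5.40 in those of Holstein Friesian, and 15.7 and 17.2 in those of Brangus (edgeR log2 fold change -0.84, SE 0.38, adjusted p 0.478). It too was chosen after its values were seen.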
